A study of Mus musculus with 6 samples.

Results

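The supply of inorganic phosphate and the removal of pyrophosphate were followed through 8 genes in primary mouse osteoblasts: Alpl, Phospho1, Enpp1, Ank, Slc20a1, Slc20a2, Smpd3 and Ahsg. These genes were chosen by name for their known part in mineralization, after earlier results of these data had been seen. Every probe that the RefSeq accession on the array assigned to them was taken. This gave 10 probes of 39429 and 8 genes of 20659 named on the array. On differentiation, Ahsg, which encodes the mineral-binding glycoprotein fetuin-A, rose at least 47.9-fold as processed here. This bound was not kept with another background correction. Smpd3, the neutral sphingomyelinase of the plasma membrane, rose 5.57-fold. In differentiated osteoblasts kept with cabozantinib, Ahsg was 12.6-fold lower than in differentiated osteoblasts without it, a call that several other ways of processing the arrays did not keep, while Smpd3 was not called in that comparison. The genes for alkaline phosphatase, for the enzyme that makes pyrophosphate, for the pyrophosphate exporter and for both phosphate carriers did not pass the test in any comparison, and Phospho1 was not well above background on any array.

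Hydroxyapatite is laid down by osteoblasts when phosphate and calcium exceed their solubility in the matrix, and pyrophosphate is a strong inhibitor of this crystal growth. ENPP1 makes pyrophosphate from ATP outside the cell and ANK brings pyrophosphate or ATP out of it, whereas tissue-nonspecific alkaline phosphatase, the product of Alpl, cleaves pyrophosphate to phosphate. PHOSPHO1 releases phosphate from phosphocholine inside matrix vesicles, SMPD3 is 1 source of that phosphocholine, the sodium-dependent carriers PiT-1 (Slc20a1) and PiT-2 (Slc20a2) take up phosphate, and fetuin-A holds calcium phosphate in soluble particles.

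The cells were primary cultures from the calvaria, the flat bones of the skull, of CD1 mice aged 2 to 5 days. Undifferentiated osteoblasts were grown to confluence in α-MEM with fetal bovine serum, differentiated osteoblasts were kept for a further 30 days in medium with 5 mM of β-glycerol phosphate together with ascorbic acid, the former a substrate from which phosphate is released, and the last group had 100 nM cabozantinib, an inhibitor of the MET and VEGFR2 kinases, in that medium for the 30 days. There were 2 arrays for each of the 3 conditions, and since nothing in the labels says that replicates were separate cultures, p values measure only the spread between these arrays, which may be technical. No other treatment or allele was given for any group, the results text of the study names day 24 where its array methods and the labels give 30 days, and how many mice went into a culture was not stated.

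The scanner software flagged 61.1% to 72.9% of the spots of an array without cabozantinib as well above background. On the cabozantinib arrays it flagged fewer, 58.9% and 58.8%. No spot was saturated. Signals are given on the log2 scale relative to the 75th percentile of the same array, so that 0 is the 75th percentile, and a value can be compared between arrays for 1 probe but not between probes. On this scale the median difference of all probes was 0.07 for differentiated against undifferentiated osteoblasts, -0.28 for cabozantinib against differentiated and -0.42 for cabozantinib against undifferentiated. The 4 arrays without cabozantinib shared 1 recorded scan date and extraction time, and both cabozantinib arrays shared another. The slide itself was not read, so these are called scan batches here. Cabozantinib and scan batch cannot be told apart, while differentiated and undifferentiated osteoblasts were compared within 1 batch. The lower share of flagged spots went with both, and it limits what dim probes show in the comparisons with cabozantinib. Of 9 osteoblast markers, Bglap had no probe named here, and Col1a1, Col1a2, Bglap2, Ibsp, Spp1 and Dmp1 were well above background on all 6 arrays. The transcription factor genes Runx2 and Sp7 were so on 3 and 4 arrays, Runx2 on neither differentiated array. Their fitted log2 fold changes on differentiation, -1.93 (limma adjusted p = 0.0714) and -1.86 (adjusted p = 0.316), did not pass. The Runx2 value was fitted to signals not above background after differentiation, and its group means gave a bound of only 1.48-fold lower. Of the 8 osteoblast markers tested, 3 were called higher on differentiation and 0 lower, where 6.89% of all genes were called higher and 6.16% lower. The 3 were Bglap2 with a log2 fold change of 5.05 (limma adjusted p = 0.000697), Dmp1 with 3.98 and Ibsp with 2.19.

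The RefSeq bases just upstream of the annotated transcription start were available for 6 of the 8 genes (build GRCm38.p6). Those of Ahsg are shown because it was the member called in all 3 comparisons, those of the 2 annotated starts of Alpl because the single probe does not separate them here, and those of the first start of Slc20a1 because it held the most motif matches. Each line gives the 250 bases before the start, 5′ to 3′ on the strand of the gene, in lower case, with capitals for a match on either strand to TGTGGT (the core letters bound by RUNX factors), TATAAA (the TATA box), CACGTG (an E-box) or CCAAT (the box of that name).
Ahsg, chr16:22891765-22892014, plus strand: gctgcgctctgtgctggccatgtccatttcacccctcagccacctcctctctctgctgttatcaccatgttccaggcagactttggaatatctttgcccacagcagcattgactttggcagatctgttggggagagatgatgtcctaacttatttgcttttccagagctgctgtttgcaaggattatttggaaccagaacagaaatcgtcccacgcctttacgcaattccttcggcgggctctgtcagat
Alpl start 1, chr4:137796385-137796634, minus strand: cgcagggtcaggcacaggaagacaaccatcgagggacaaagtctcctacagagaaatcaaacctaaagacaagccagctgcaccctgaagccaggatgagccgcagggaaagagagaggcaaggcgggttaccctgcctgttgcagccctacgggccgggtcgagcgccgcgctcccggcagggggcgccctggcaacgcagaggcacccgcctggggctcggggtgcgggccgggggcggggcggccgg
Alpl start 2, chr4:137766476-137766725, minus strand: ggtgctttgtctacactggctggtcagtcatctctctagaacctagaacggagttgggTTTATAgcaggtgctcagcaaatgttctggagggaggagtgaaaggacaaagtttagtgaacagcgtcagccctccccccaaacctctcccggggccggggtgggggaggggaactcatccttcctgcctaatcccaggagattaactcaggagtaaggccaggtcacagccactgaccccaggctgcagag
Slc20a1 start 1, chr2:129198523-129198772, plus strand: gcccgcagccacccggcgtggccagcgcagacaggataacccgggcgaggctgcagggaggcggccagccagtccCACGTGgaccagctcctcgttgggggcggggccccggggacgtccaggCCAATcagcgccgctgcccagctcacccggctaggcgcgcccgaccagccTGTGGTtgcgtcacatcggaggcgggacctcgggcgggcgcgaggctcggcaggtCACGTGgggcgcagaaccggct
The upstream bases of Ahsg had 50% G and C and none of the 4 motifs, against a median of 52.4% G and C over 32851 such windows. Start 1 of Alpl had 68.4% G and C and no match, and start 2 had 56.0% and 1 match to the TATA letters at position -192 counted from the start. The Slc20a1 window held the RUNX letters at -77, CCAAT at -127 and the E-box at -175 and -22. Of all windows, 14.0% held the RUNX letters, 12.4% the TATA box, 6.02% the E-box and 33.8% the CCAAT box on either strand, and a match describes letters only.

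Of the 8 genes, 7 had a probe well above background on at least 2 arrays and were tested with limma, as 9 of the 10 probes, of which 6 cleared the background on every array. At an adjusted p under 0.05, 2 of the 7 genes were higher and none was lower in differentiated than in undifferentiated osteoblasts, where 13.0% of all genes tested were called (6.89% higher and 6.16% lower). With cabozantinib against differentiated osteoblasts 1 of the 7 was lower and none was higher, where 12.1% of all genes were called, nearly all of them lower (11.4% lower and 0.711% higher). With cabozantinib against undifferentiated osteoblasts 2 of the 7 were higher, where 24.0% of all genes were called (6.56% higher and 17.4% lower). The median log2 fold change of the 7 genes was 0.48, -0.31 and 0.66 in these comparisons, beside 0.10, -0.29 and -0.37 for all genes. Any 2 of these comparisons share 2 arrays. With quantile normalization fewer probes were called with cabozantinib, 139 in place of 3241 against differentiated and 4013 in place of 6627 against undifferentiated osteoblasts. The share of higher probes among those called was 38.8% in place of 6.45% against differentiated osteoblasts. Against undifferentiated osteoblasts it was 53.4% in place of 25.8%.

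**Figure D1:**
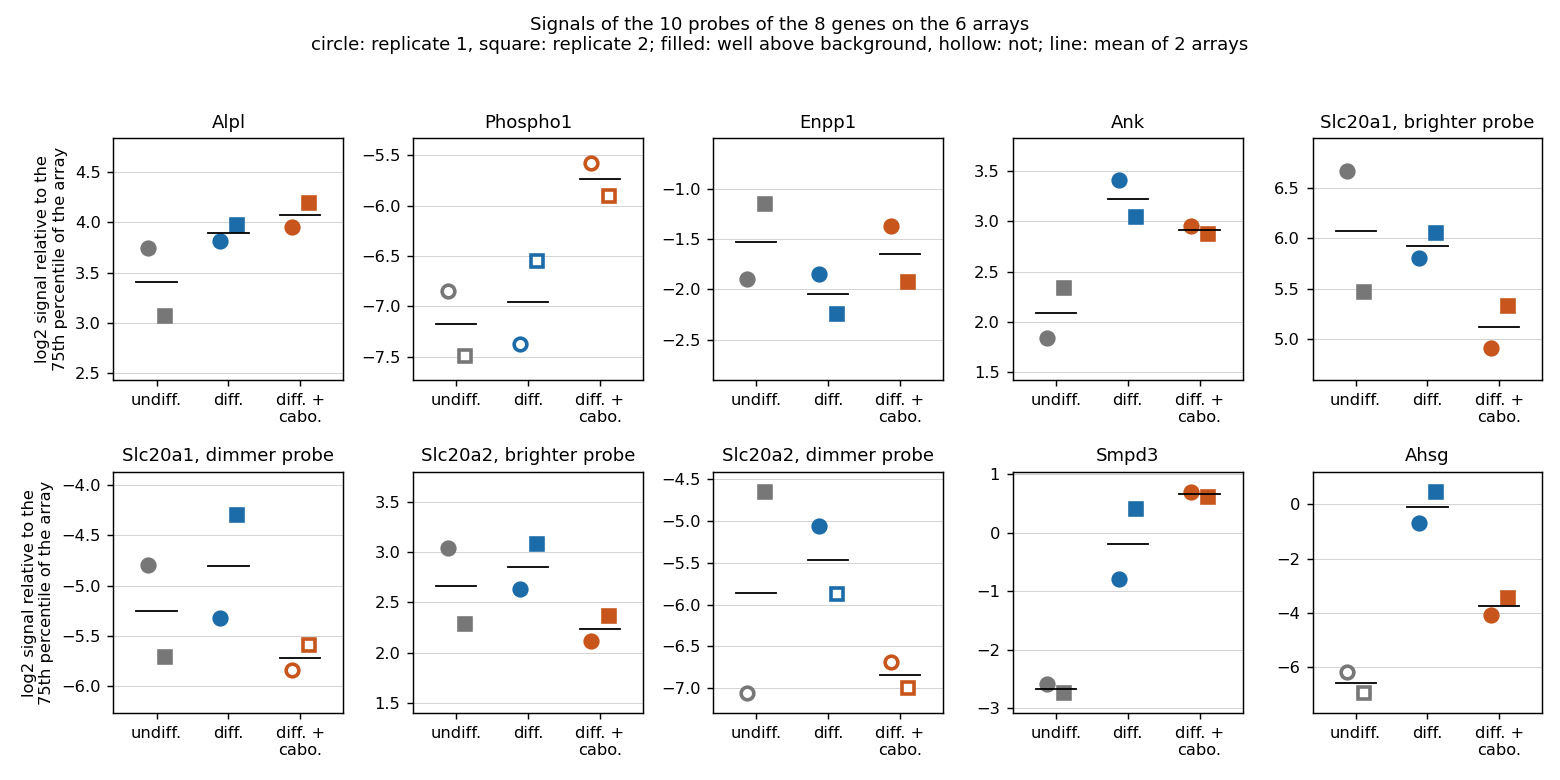
Log2 signal relative to the 75th percentile of the array (vertical axes, which differ between panels) for the 10 probes on the 2 arrays of each condition, with the mean as a line. Filled points were well above background and hollow points were not. Ahsg lies between -0.67 and 0.46 on the differentiated arrays and at -3.43 or lower on all others, and every Phospho1 point is hollow.

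Ahsg, the gene of a secreted inhibitor of mineral precipitation that is best known as a liver product, was the member called in all 3 comparisons. Its signal was -6.19 and -6.96 in undifferentiated osteoblasts, where it was not well above background, -0.67 and 0.46 after differentiation, and -4.08 and -3.43 with cabozantinib. The 3 conditions did not overlap, with the differentiated arrays highest and the undifferentiated arrays lowest. Because the undifferentiated arrays give only a bound, set at the lowest signal called well above background on each array or the signal of the probe where that was higher, the rise on differentiation was at least 47.9-fold (limma on the measured values, adjusted p = 0.000897) and the level with cabozantinib was at least 3.81-fold above that of undifferentiated osteoblasts (adjusted p = 0.0127).

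With cabozantinib the Ahsg signal was lower by 3.65 on the log2 scale than in differentiated osteoblasts without it (log2 fold change -3.65, SE 0.51, limma adjusted p = 0.0250, n = 2 arrays each), and relative to the median probe the difference was -3.37. The difference kept its sign in all 15 limma alternatives, between -4.22 and -2.69, but its adjusted p was under 0.05 in 6 of them and ranged from 0.0145 to 0.795. The call was lost with quantile normalization (adjusted p = 0.0514), with the authors' values (0.0701), with no filter on dim probes (0.0673), with a normexp background (0.795), with a replicate block (0.0522), and when any 1 of the 4 arrays compared was left out (0.0540 to 0.160). Against undifferentiated osteoblasts the cabozantinib call was lost with the normexp background, where the log2 fold change was 0.45 (adjusted p = 0.701). The rise on differentiation kept its call in all 15, with an adjusted p of at most 0.0351. With the normexp background the log2 fold change of this rise was 3.14, below the bound of 5.58. Both Ahsg bounds thus hold for the main processing and not for the normexp background.

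Some markers of adipocytes moved with Ahsg and others did not. Of the 6 adipocyte markers measured, 5 were called higher on differentiation, where 6.89% of all genes were. With cabozantinib against differentiated osteoblasts 2 of the 6 were called lower, where 11.4% of all genes were. Cfd, the gene of the adipocyte protease adipsin, was at -6.94 and -8.72 in undifferentiated osteoblasts, -0.58 and 0.30 after differentiation and -4.02 and -3.61 with cabozantinib, with a log2 fold change of -3.68 with cabozantinib (SE 0.62, adjusted p = 0.0252). Fabp4, a fatty acid carrier of adipocytes and macrophages, fell by 2.06 on the log2 scale (adjusted p = 0.0334). With the authors' values, with no filter and with the normexp background, 0 probes were called for cabozantinib against differentiated osteoblasts. The Cfd and Fabp4 calls were thus lost there. Lpl, the lipoprotein lipase gene, rose by 4.04 on differentiation and was at 5.09 and 4.99 there and 5.35 and 5.33 with cabozantinib (log2 fold change 0.30, adjusted p = 0.668). Plin1, the gene of a lipid droplet protein, had -1.54 on differentiation (adjusted p = 0.337). Adipoq and Pparg had -1.37 (limma adjusted p = 0.168) and -1.07 (adjusted p = 0.119) with cabozantinib against differentiated osteoblasts and did not pass. The summed adipocyte signal, as a multiple of the 75th percentile, was 4.54 to 5.00 in undifferentiated, 59.4 to 83.0 in differentiated and 49.5 to 51.0 in cabozantinib-treated osteoblasts. Such a sum is led by the brightest probes, and Lpl made up most of it on the cabozantinib arrays, so that it does not show the lower markers. Adipoq and Cfd were not well above background on the undifferentiated arrays. The part of these cells in the Ahsg signal was not tested, and in bulk RNA fewer cells of a type cannot be told apart from less RNA per cell.

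Of 5 hepatocyte markers, Apoa1, Ttr and Fgb were well above background on no array, and the summed signal of the 5 was 0.134 to 0.209 in undifferentiated, 0.184 to 0.216 in differentiated and 0.0692 to 0.0693 in cabozantinib-treated osteoblasts. Serpina1a was well above background on all 6 arrays and was lower with cabozantinib (log2 fold change -1.69, SE 0.38, limma adjusted p = 0.0374). A second Serpina1a probe, also well above background on all 6 arrays, gave -1.08 and was not called (adjusted p = 0.180). Alb was well above background on 1 undifferentiated and 1 differentiated array and on no cabozantinib array. Alb was at -5.69 and -5.39 after differentiation and -7.75 and -7.79 with cabozantinib. No fold is given for Alb because 1 differentiated array did not clear the background. Fetub, which encodes the related fetuin-B, was at -3.59 and -4.95 in undifferentiated osteoblasts, -2.42 and -1.68 after differentiation and -3.78 and -3.14 with cabozantinib. It rose by 2.22 on differentiation (SE 0.55, adjusted p = 0.0387), a call kept in 10 of 16 alternatives, and with cabozantinib its log2 fold change of -1.41 did not pass (adjusted p = 0.139).

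Smpd3 encodes neutral sphingomyelinase 2, which splits sphingomyelin into ceramide and phosphocholine. Its signal was -2.60 and -2.75 in undifferentiated osteoblasts, -0.79 and 0.40 after differentiation, and 0.69 and 0.61 with cabozantinib, and it was well above background on all 6. All 3 conditions were separate, and the differentiated replicates lay further apart than those of the other conditions. Smpd3 rose 5.57-fold on differentiation (log2 fold change 2.48, SE 0.45, adjusted p = 0.0132). With cabozantinib it was 10.0-fold above undifferentiated osteoblasts (3.32, SE 0.45, adjusted p = 0.00586), a call kept in all 16 limma alternatives. The rise on differentiation was called in 14 of the 16, and it was not called without the second differentiated array (1.88, adjusted p = 0.0626) or with the normexp background (1.89, adjusted p = 0.0685).

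Both cabozantinib arrays were above both differentiated arrays for Smpd3, but the difference of 0.85 (SE 0.45, 95% interval -0.21 to 1.91, adjusted p = 0.278) did not pass the test, and relative to the median probe it was 1.13. It was 1.45 without the second differentiated array and 0.25 without the first. Over all genes, 58.4% had conditions that did not overlap in this comparison (13.3% higher and 45.1% lower with cabozantinib), and among the 7 genes tested there were 5, with Smpd3 higher and Ank, Slc20a1, Slc20a2 and Ahsg lower.

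**Figure D2:**
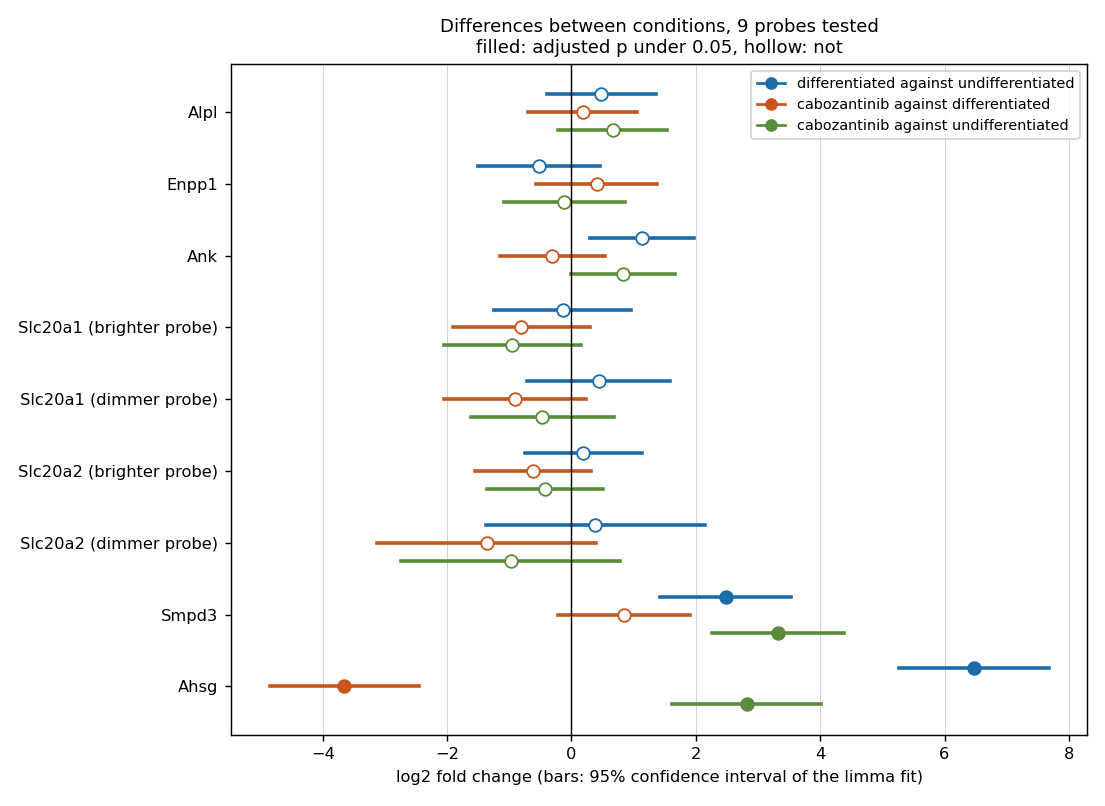
Log2 fold changes (horizontal axis) with the 95% confidence intervals of the limma fit for the 9 probes tested, in 3 comparisons. Filled points had an adjusted p under 0.05, which held for Smpd3 at 2.48 and 3.32 and for Ahsg at 6.47, -3.65 and 2.81, where the 2 Ahsg values against undifferentiated osteoblasts are fitted to signals not above background and stand for the bounds in the text.

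Ank encodes the membrane protein through which pyrophosphate or ATP leaves the cell. Its signal was 1.84 and 2.33 in undifferentiated osteoblasts, 3.41 and 3.04 after differentiation, and 2.96 and 2.87 with cabozantinib. Both groups kept in differentiation medium lay above both undifferentiated arrays. The log2 fold change on differentiation was 1.14 (SE 0.36, 95% interval 0.30 to 1.98), with an unadjusted p of 0.0149 and an adjusted p of 0.0859 in limma, so that it missed the threshold, and over 16 alternatives the adjusted p ranged from 0.0602 to 0.302. With cabozantinib the log2 fold change was 0.83 against undifferentiated (SE 0.36, adjusted p = 0.130) and -0.31 against differentiated osteoblasts (SE 0.36, 95% interval -1.15 to 0.53, adjusted p = 0.669). Relative to the median probe the latter was -0.03.

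Enpp1, the gene of the ectoenzyme that makes pyrophosphate, was at -1.90 and -1.16 in undifferentiated osteoblasts, -1.85 and -2.25 after differentiation, and -1.37 and -1.92 with cabozantinib. The conditions overlapped in every pair. Its log2 fold change was -0.52 on differentiation (SE 0.41, 95% interval -1.50 to 0.45, adjusted p = 0.531) and 0.40 with cabozantinib against differentiated osteoblasts (95% interval -0.57 to 1.38, adjusted p = 0.618). Against undifferentiated osteoblasts the cabozantinib difference was -0.12 (adjusted p = 0.871) and turned to 0.16 with quantile normalization or the authors' values.

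Alpl, the gene of the alkaline phosphatase used as a marker of osteoblasts, was at 3.75 and 3.07 in undifferentiated osteoblasts, 3.81 and 3.97 after differentiation, and 3.95 and 4.19 with cabozantinib. The undifferentiated arrays were lowest, and the 2 groups in differentiation medium overlapped. The log2 fold change was 0.48 on differentiation (SE 0.37, 95% interval -0.39 to 1.35, adjusted p = 0.512) and 0.18 with cabozantinib against differentiated osteoblasts (95% interval -0.69 to 1.05, adjusted p = 0.832). With cabozantinib against undifferentiated osteoblasts it was 0.66 (95% interval -0.21 to 1.54, adjusted p = 0.230). The intervals leave room for a change of more than 2-fold upward in each comparison.

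The other alkaline phosphatase genes followed were Akp3, Alpi and Alppl2. Akp3 was not tested, Alpi was called lower with cabozantinib than in differentiated osteoblasts (log2 fold change -1.80, SE 0.36, adjusted p = 0.0310, and -1.09 with quantile normalization), and Alppl2 had -1.31 (adjusted p = 0.0875). Alpi was at -3.86 and -4.33 in undifferentiated osteoblasts, -3.55 and -3.40 after differentiation and -5.50 and -5.04 with cabozantinib.

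The difference between 2 log2 signals on 1 array is free of the scaling of that array, and its change shows unequal change and not which gene changed. The log2 ratio of Alpl to Enpp1 was 5.65 and 4.23 on the undifferentiated, 5.66 and 6.22 on the differentiated and 5.32 and 6.12 on the cabozantinib arrays. The ratio of Alpl to Ank was 1.91 and 0.74, 0.40 and 0.94, and 0.997 and 1.32 in the same order. For both ratios 1 undifferentiated array lay far from the other, and only the differentiated and cabozantinib arrays for Alpl to Ank, and the undifferentiated and differentiated arrays for Alpl to Enpp1, did not overlap. The latter arrays were apart by 5.65 against 5.66 and overlapped with quantile normalization (5.71 against 5.67) and with the authors' values (5.71 against 5.68). Their levels have no meaning between 2 probes, and no test was made.

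Phospho1, the phosphatase gene of matrix vesicles, had 1 probe, which was not well above background on any array. Its signals of -6.85 and -7.49, -7.38 and -6.55, and -5.57 and -5.91 in the order of the conditions above therefore give no fold and no order. Phospho1 was not called by the scanner software at this signal, which does not show that the transcript is absent.

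The 2 phosphate carriers had a bright and a dim probe each. The bright Slc20a1 probe was at 6.67 and 5.47 in undifferentiated osteoblasts, 5.80 and 6.05 after differentiation, and 4.91 and 5.32 with cabozantinib. Both cabozantinib arrays lay below all others. The log2 fold change with cabozantinib was -0.81 against differentiated (SE 0.47, 95% interval -1.91 to 0.29, adjusted p = 0.323) and -0.95 against undifferentiated osteoblasts (adjusted p = 0.177), or -0.53 and -0.54 relative to the median probe. On differentiation it was -0.14 (adjusted p = 0.917), and the dim probe gave 0.44 (adjusted p = 0.688), so that the 2 probes disagreed in sign.

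The dim Slc20a1 probe was at -4.79 and -5.70, -5.32 and -4.30, and -5.84 and -5.59 in the same order and was not well above background on the cabozantinib arrays. Against differentiated osteoblasts its group means gave a bound of 1.70-fold lower with cabozantinib. The difference did not pass (limma adjusted p = 0.283), and the fitted 95% interval of -2.05 to 0.24 on the log2 scale included no change. The bright Slc20a2 probe was at 3.04 and 2.29 in undifferentiated osteoblasts, 2.63 and 3.08 after differentiation, and 2.12 and 2.36 with cabozantinib. Its cabozantinib arrays lay below the differentiated arrays and overlapped with the undifferentiated ones. The log2 fold changes of Slc20a2 were 0.19 on differentiation (adjusted p = 0.861), -0.62 with cabozantinib against differentiated (SE 0.40, 95% interval -1.55 to 0.32, adjusted p = 0.380), and -0.42 with cabozantinib against undifferentiated osteoblasts (adjusted p = 0.479). Relative to the median probe the last 2 were -0.34 and -0.01. The dim Slc20a2 probe was well above background on 1 undifferentiated and 1 differentiated array and on no cabozantinib array, so that it gives no fold, and it was not called in any comparison.

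Over all genes, 44.6% had conditions that did not overlap on differentiation (25.0% higher and 19.6% lower), and 4 of the 7 tested genes did so, namely Alpl, Ank, Smpd3 and Ahsg, all higher. With cabozantinib against undifferentiated osteoblasts the share was 63.9% over all genes (19.5% higher and 44.4% lower), and the same 4 genes were higher and Slc20a1 was lower without overlap.

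Beside the 8 genes, 49 others of phosphate, pyrophosphate, ATP, choline and sphingomyelin metabolism and of mineral regulation were followed as a list, of which 42 were tested. On differentiation 10 of the 42 rose and 1 fell, or 26.2% of the list beside 13.0% of all genes (6.89% higher and 6.16% lower). The median log2 fold change was 0.19 beside 0.10 for all genes. These shares only describe the list, which was chosen with earlier results of these data known. The largest rise was that of Phex, an endopeptidase gene of osteoblasts and osteocytes whose loss causes phosphate wasting. Phex was at -4.07 and -3.43 in undifferentiated osteoblasts, 2.80 and 2.43 after differentiation and 1.39 and 1.44 with cabozantinib (log2 fold change on differentiation 6.37, SE 0.37, adjusted p = 0.000506). Among the mineral regulators 5 of 9 tested rose. Dmp1, an acidic matrix protein gene of osteocytes, rose by 3.98, Mgp, the gene of an inhibitor of calcification, rose by 2.13, and Ibsp, the bone sialoprotein gene, rose by 2.19. The osteopontin gene Spp1 had -3.68 with an adjusted p of 0.0606, and Fgf23 had -0.16.

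Several genes that handle extracellular nucleotides were called. Of the 14 genes of pyrophosphate, ATP and nucleotide metabolism 4 rose on differentiation and none was called lower. Entpd1, a nucleotidase gene that removes the ATP from which ENPP1 makes pyrophosphate, was at -4.96 and -4.85 in undifferentiated osteoblasts, 0.92 and 1.12 after differentiation and 0.88 and 1.18 with cabozantinib (log2 fold change 5.93, SE 0.33, adjusted p = 0.000499). It was not well above background on the first undifferentiated array, nor was Abcc6. Entpd2, of the same family, rose by 3.20, Enpp2, the gene of the lysophospholipase autotaxin, by 3.18 and Abcc6, a transporter gene linked to ATP release, by 2.30 in the fit of the measured signals, a value that was 0.54 with the normexp background (adjusted p = 0.935). The pannexin genes did not pass, with 1.93 for Panx1 (adjusted p = 0.0520) and -1.97 for Panx3 (adjusted p = 0.0720).

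Entpd1 is also expressed by macrophages. Of 9 macrophage and osteoclast markers measured 5 rose on differentiation, beside 6.89% of all genes, among them Adgre1 by 4.02 and Tyrobp by 3.11. Their summed signal was 52.9 to 93.8 in undifferentiated, 304 to 458 in differentiated and 281 to 337 in cabozantinib-treated osteoblasts, and each of the 9 cleared the background on some array. At their brightest probes none of the 9 was called by limma with cabozantinib against differentiated osteoblasts, and none had an unadjusted p under 0.05 there. A second probe of Csf1r, the receptor gene of the macrophage growth factor CSF1, was lower with cabozantinib (log2 fold change -1.51, adjusted p = 0.0356, against -0.18 at the brightest), and a second probe of Itgam had -1.06 (adjusted p = 0.170). Cd14, a receptor gene of monocytes and macrophages, was also among the 2 genes whose signals were most like those of Ank, at r = 0.997 over the 6 arrays. The part of these cells in the Entpd1 and Ank signals was not tested.

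In choline and sphingomyelin metabolism, 10 of 13 genes were tested. The choline transporter gene Slc44a1 rose by 1.25 (adjusted p = 0.0477) and the choline kinase gene Chkb fell by 1.32 (adjusted p = 0.0466), calls kept in 4 and 6 of 16 alternatives. A second Slc44a1 probe, well above background on all 6 arrays, gave -0.33 on differentiation (adjusted p = 0.762). Of the other sphingomyelinase genes Smpd1 had 0.63 (adjusted p = 0.332) and Smpd4 -1.01 (adjusted p = 0.372). None of the 4 matrix vesicle annexins was called in any comparison, with log2 fold changes between -0.20 and 0.41 on differentiation. Of the other phosphate transport genes Slc34a2 and Slc34a3 were not tested, and Xpr1, the phosphate exporter gene, had 0.74 (adjusted p = 0.270).

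With cabozantinib against differentiated osteoblasts 3 of the 42 listed genes were called, 1 higher and 2 lower. This was 7.14% beside 12.1% of all genes (0.711% higher and 11.4% lower). The median was 0.01 beside -0.29 for all genes. Ibsp was at 2.83 and 2.30 in undifferentiated osteoblasts, 4.58 and 4.94 after differentiation and 6.12 and 6.40 with cabozantinib. It was 2.82-fold higher with cabozantinib than without (SE of the log2 fold change 0.36, limma adjusted p = 0.0441). A second Ibsp probe, well above background on all 6 arrays, gave a log2 fold change of 2.72 (adjusted p = 0.0250). Enpp2 was 2.09 lower on the log2 scale (log2 fold change -2.09, SE 0.51, adjusted p = 0.0455), and Alpi was the other gene called lower. The pannexin gene Panx3 had 2.03 and did not pass (adjusted p = 0.0652). At the brightest probes each of the 3 calls was kept in 5 or 6 of 16 limma alternatives. None of the 3 was called with quantile normalization or with a replicate block.

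With cabozantinib against undifferentiated osteoblasts 8 of the 42 were higher and 1 was lower, or 21.4% beside 24.0% of all genes. The directions differed, since over all genes 6.56% were higher and 17.4% lower. Entpd1 had a log2 fold change of 5.94, Phex 5.16, Ibsp 3.69, Entpd2 3.57, Dmp1 3.46, Abcc6 2.41, Mgp 2.14 and Slc44a1 1.80. With the normexp background Abcc6 had 0.50 (adjusted p = 0.648), the Slc44a1 call was kept in 12 of 16 alternatives with a lowest value of 0.35, and its other probes gave -0.24 and -0.53. The renal phosphate carrier gene Slc34a1 was lower, with -1.59 (adjusted p = 0.04998, just under the threshold) and -0.87 with quantile normalization, a call kept in 4 of 16 alternatives. Enpp2 had 1.08 (adjusted p = 0.165).

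**Figure D3:**
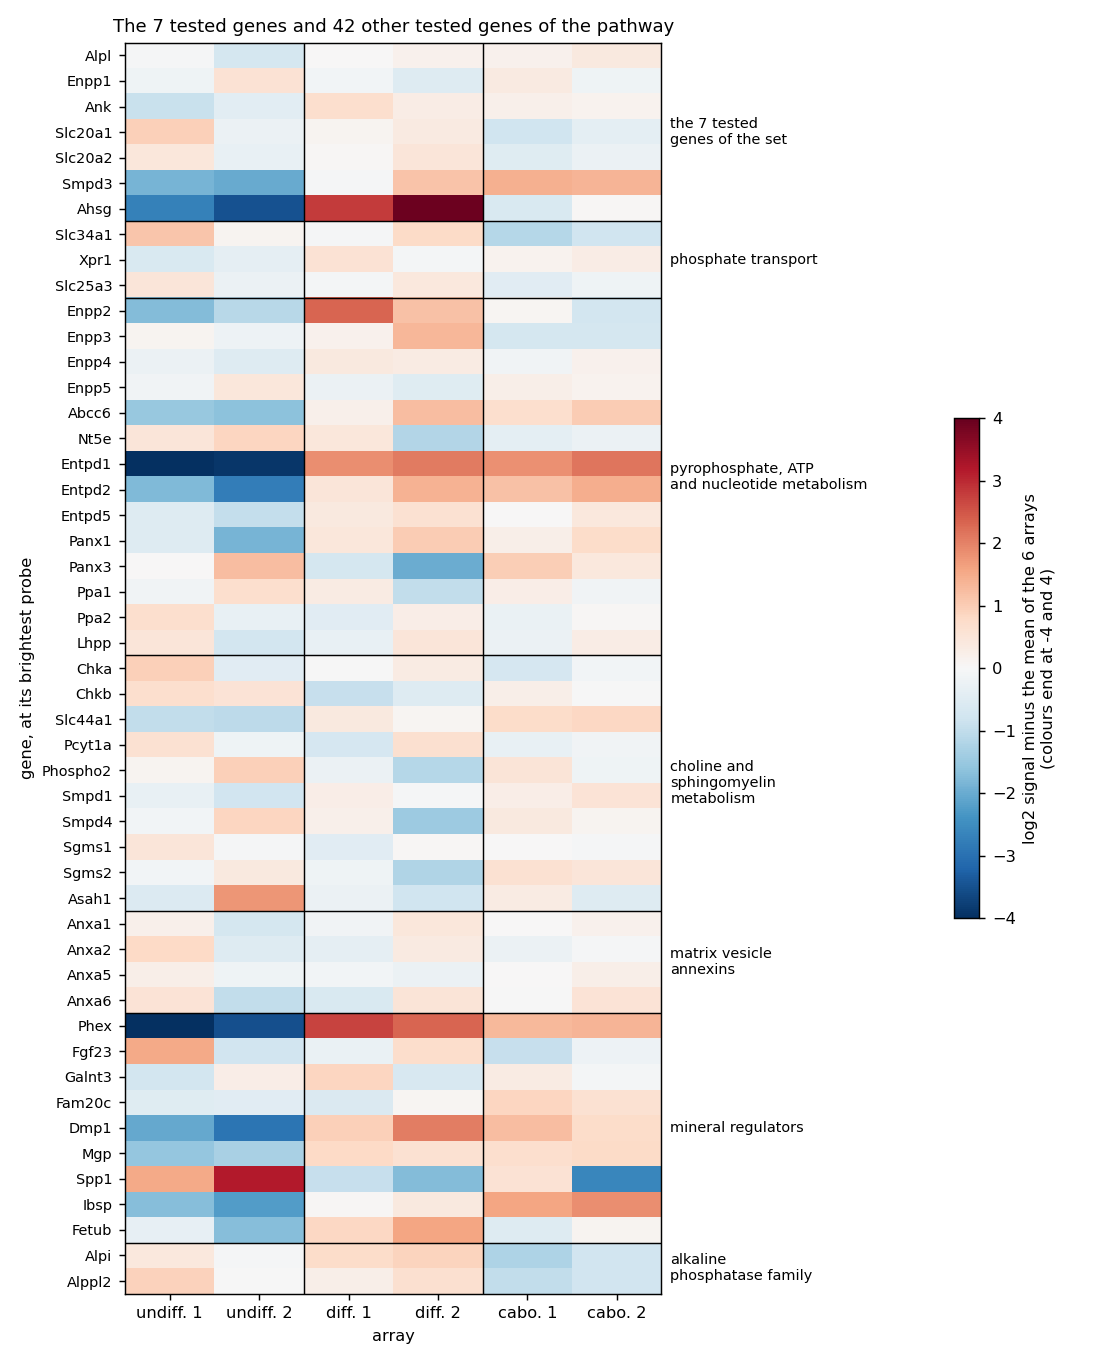
Log2 signal of each gene minus its mean over the 6 arrays (colour, which ends at -4 and 4), with genes in rows at their brightest probe and arrays in columns, for the 7 tested genes and the 42 other tested genes, grouped by list. Entpd1, Phex and Dmp1 are low on both undifferentiated arrays and high on the other 4, while Ahsg is high on the differentiated arrays alone.

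The genes whose signals over the 6 arrays were most like those of a member were found by Pearson r. The other genes compared, well above background on all arrays, numbered 12875, or 12876 for Ahsg. The result is a description of 6 arrays in 2 scan batches. For Ahsg the most alike genes were Meis1 (r = 0.9997) and Acsbg3 (0.997), and for Smpd3 Bend5 (0.998) and Bves (0.997). For Alpl they were Trim44 (0.999) and Car4 (0.998), and for Enpp1 Zfp110 (0.998) and Rcan3 (0.996). For Ank they were Xlr4a (0.998) and Cd14 (0.997). For Slc20a1 they were Gm10318 (0.998) and Btbd11 (0.997), and for Slc20a2 Nek5 (0.997) and Pgam5 (0.996). Cd14 was at 0.18 and 0.62, 1.84 and 1.53, and 1.41 and 1.28 in the order of the conditions.

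**Figure D4:**
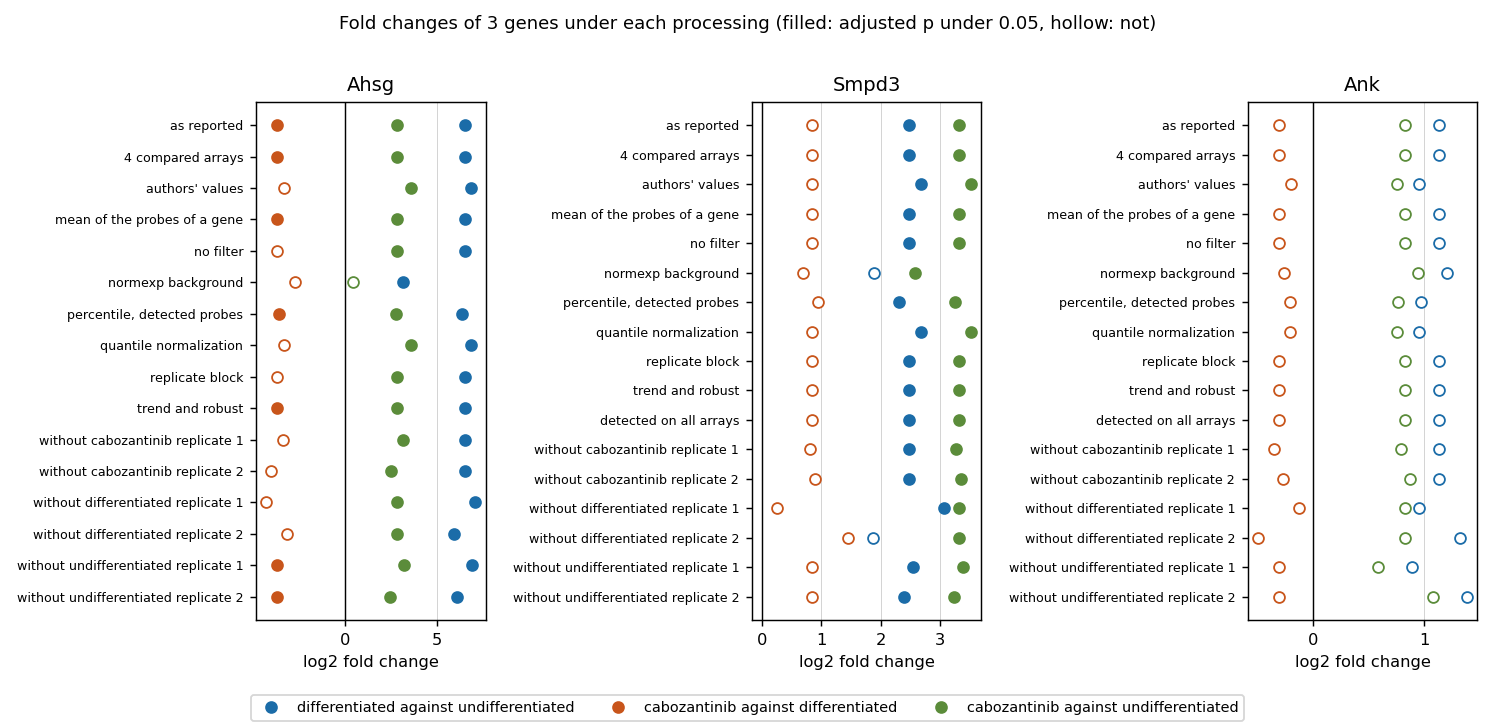
Log2 fold changes (horizontal axes, which differ between panels) of Ahsg, Smpd3 and Ank as reported and under each other processing with limma (rows), with filled points where the adjusted p was under 0.05. The sign of each gene is the same in all rows, the Ahsg difference between cabozantinib and differentiated osteoblasts runs from -4.22 to -2.69 with filled and hollow points, and no Ank point is filled.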

How the data were processed

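RNA of 6 samples of primary mouse osteoblasts was labeled with Cy3 and hybridized to 1-color Agilent whole mouse genome arrays, and the authors deposited the output of Feature Extraction 11.0.1.1. The deposited intensities were background-subtracted and detrended by that software and were not scaled between arrays. The deposited table of the authors holds log2 values of 30439 probes, whose normalization and filter are not given in the sources used here.

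After removal of control and outlier spots, the log2 intensities of replicate spots were averaged and scaled to the 75th percentile of their array. Probes were named by RefSeq accession (69.1% of 39429). Probes flagged well above background by the scanner on 2 or more arrays were fitted with limma 3.58.1 in R 4.3.3 (up to 27239 probes, 3 residual degrees of freedom and 4.07 from pooling), with condition as the only term and Benjamini-Hochberg adjustment over all probes at 0.05. A gene was counted at its brightest probe. Named beside the 8 genes were the listed pathway genes with an adjusted p under 0.05, at most 8 per comparison by size, the 2 genes most like each member, and the cell markers and pathway genes set beside a result, these last chosen after their values were seen. The 8 genes and the lists were chosen with earlier results of these data known. The functions were tested on simulated data. Tables and figures were made with Python 3.11.15, pandas 2.3.3 and matplotlib 3.10.9. The number of arrays limits the precision, and with 2 against 2 an exact permutation test cannot go below a two-sided p of 0.333.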

Additional observations from a re-analysis of the deposited data

How the results depend on the processing

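With 3 conditions of 2 arrays, the counts of calls moved with the processing more than the fold changes did. Of 381 recomputed fold changes of the 7 tested genes, 349 kept their direction and their side of the threshold, 22 lost the call, 1 gained it and 9 turned in sign, all of these small. Slc20a1 on differentiation turned to 0.15 with the mean of its probes and 0.44 with the dim probe (-0.75 to 0.46 with 1 array left out), Slc20a2 on differentiation ranged from -0.18 to 0.57 with 1 array left out, and Enpp1 with cabozantinib against undifferentiated osteoblasts turned to 0.16 with the authors' values and 0.16 with quantile normalization (-0.49 to 0.25 with 1 array left out). Where an array was left out, the lone array of its group was taken to vary like the other groups. The change of the log2 ratio of Alpl to Enpp1 with cabozantinib against differentiated osteoblasts ranged from -0.62 to 0.18 with 1 array left out, and that of Alpl to Ank with cabozantinib against undifferentiated from -0.75 to 0.42. The cause of these turns was not tested.

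Of the members, 2 were called on differentiation, 1 with cabozantinib against differentiated and 2 with cabozantinib against undifferentiated osteoblasts, and with 1 array left out these counts were 1 to 2, 0 to 1 and 2 to 3. The methods' t-test, paired or unpaired, called 0 members and 0 listed genes after adjustment in all 3 comparisons. Over all probes it called 0, except 5 for cabozantinib against undifferentiated unpaired, with 4221, 1611 and 2185 probes (paired) and 6003, 4083 and 6358 (unpaired) at an unadjusted p under 0.05 for cabozantinib against differentiated, differentiation, and cabozantinib against undifferentiated, in that order. The normexp background gave 1, 0 and 1 members, 6, 0 and 5 listed genes and 1521, 0 and 862 probes for differentiation, cabozantinib against differentiated and cabozantinib against undifferentiated, in the order kept from here on. A filter for signal above background on each of the 6 arrays left 1, 0 and 1 members, since Ahsg was then not tested, 0 listed genes for cabozantinib against differentiated, and 1 probe there and 3375 against undifferentiated. For cabozantinib against differentiated osteoblasts, where 3241 probes were called, limma called 0 members and 0 listed genes with the authors' values, with quantile normalization and with no filter, and 0, 139 and 0 probes (6932, 6597 and 8458 at an unadjusted p under 0.05). The 4 compared arrays alone gave 5350 probes and 6 listed genes. Against undifferentiated osteoblasts, where 6627 probes were called, the authors' values gave 3613 probes, quantile normalization 4013, and no filter 3658, and a percentile over detected probes gave 14 listed genes in place of 9. With no filter 2412 probes in place of 3697 were called on differentiation. With 1 array left out, the probes called were 1589 to 3855, 0 to 5350 and 2215 to 8008, and the listed genes 6 to 13, 0 to 6 and 5 to 12. For cabozantinib against differentiated osteoblasts the lowest counts, 0 to 8 probes, came from leaving out any of the 4 arrays compared.

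Whether arrays with the same replicate number belong together was not settled. The statistics of the study name a paired t-test, and the labels do not say how arrays were paired. Deviations from the group means of arrays with the same number correlated at -0.51 for undifferentiated and differentiated, -0.53 for undifferentiated and cabozantinib, and 0.26 for differentiated and cabozantinib. These values cannot decide it, because any difference between the replicates of a condition, technical or not, enters them. With the replicate block 0 members, 0 listed genes and 1 probe were called for cabozantinib against differentiated osteoblasts, and 3604 probes against undifferentiated. The replicate block with crossed numbers for the undifferentiated pair, added after seeing the data, called 7210, 8185 and 12205 probes, 12 listed genes for cabozantinib against differentiated and 17 against undifferentiated, and 4 members against undifferentiated. The alternatives for the log2 ratios were added after seeing the data too. Signal limits Phospho1, the dim probes of Slc20a1 and Slc20a2, and Ahsg in undifferentiated osteoblasts.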
